A study of Mus musculus with 8 samples.

Results

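The 33 genes described here make sterols and fatty acids or control that synthesis, and were taken from the gene count table by their symbols, 33 of the 53819 genes listed. They comprised 18 sterol enzymes (7 of the mevalonate steps and 11 from squalene to cholesterol), 6 genes of sterol sensing and transport, and 9 fatty acid enzymes. Each symbol had its own row, and all 33 passed the filter on low counts, which left 13722 genes to test. RNA was sequenced from bone marrow-derived macrophages (BMDM) of 4 female BALB/cJ mice aged 8 weeks. Marrow cells of each mouse were grown apart from those of the others and differentiated for 5 days in M-CSF (macrophage colony-stimulating factor, 25 ng/mL). A bilirubin culture (2.5 µM, 48 h) and a vehicle culture (DMSO, 48 h) were then made from each mouse, giving 4 libraries per treatment and 8 in all, with no genetic alteration in either group. These are cells differentiated in culture, and 1 strain and 1 sex were used. In bulk RNA, a change in the number of cells of a kind and a change in the RNA per cell cannot be told apart.

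Sterols and fatty acids are both built from cytosolic acetyl-CoA. In the sterol branch it is converted through mevalonate and isoprenoid units to squalene, which is closed into lanosterol and trimmed to cholesterol, while in the fatty acid branch it is carboxylated, extended and desaturated. Genes of both branches are classical targets of the SREBP transcription factors (*Srebf1*, *Srebf2*), which the escort protein SCAP carries to the Golgi when sterols are low and which the INSIG proteins hold back when sterols are plentiful. Macrophages take up much lipid from dead cells and lipoproteins, and this control is well known in them.

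None of the 33 genes passed the threshold with bilirubin. In the quasi-likelihood test of edgeR, fitted to mouse and treatment and adjusted over all tested genes by the Benjamini-Hochberg method (threshold 0.05), the count was 0 of 33, against 7.53% of the 13722 genes. At an unadjusted p under 0.05 the count was 7 of 33, close to the 20.8% of all tested genes: *Mvk*, *Acss2* and *Acaca* had positive estimates, and *Sc5d*, *Dhcr7*, *Insig1* and *Stard4* negative ones. DESeq2 called *Acss2* and *Insig1* (7.83% of all genes were called), and limma voom called 0 of the 33 (7.76%). The estimates ran from -0.22 (*Insig1*) to 0.29 (*Acss2*) on the log2 scale. In the edgeR fit to mouse and treatment, all 33 of the 95% intervals lay within a 1.5-fold change in either direction. For 20 of the 33 they lay within a 1.2-fold change, so that larger changes of the mean would lie outside them. The intervals are for single genes and do not hold jointly over the 33. Their widths rest on a variance that edgeR draws in part from all tested genes. The standard deviation of the paired differences was larger for the 33 (median 0.22) than for all tested genes (median 0.14), and 0.42 for *Hsd17b7*. Intervals from the 4 differences of each gene alone were not computed and could be wider. The printed intervals also depend on the fit: with an offset for transcript length, the estimate of *Hsd17b7* was -0.46 in place of -0.17. Without the offset, the widest reach was that of *Acss2*, up to 1.42-fold.

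**Figure D1:**
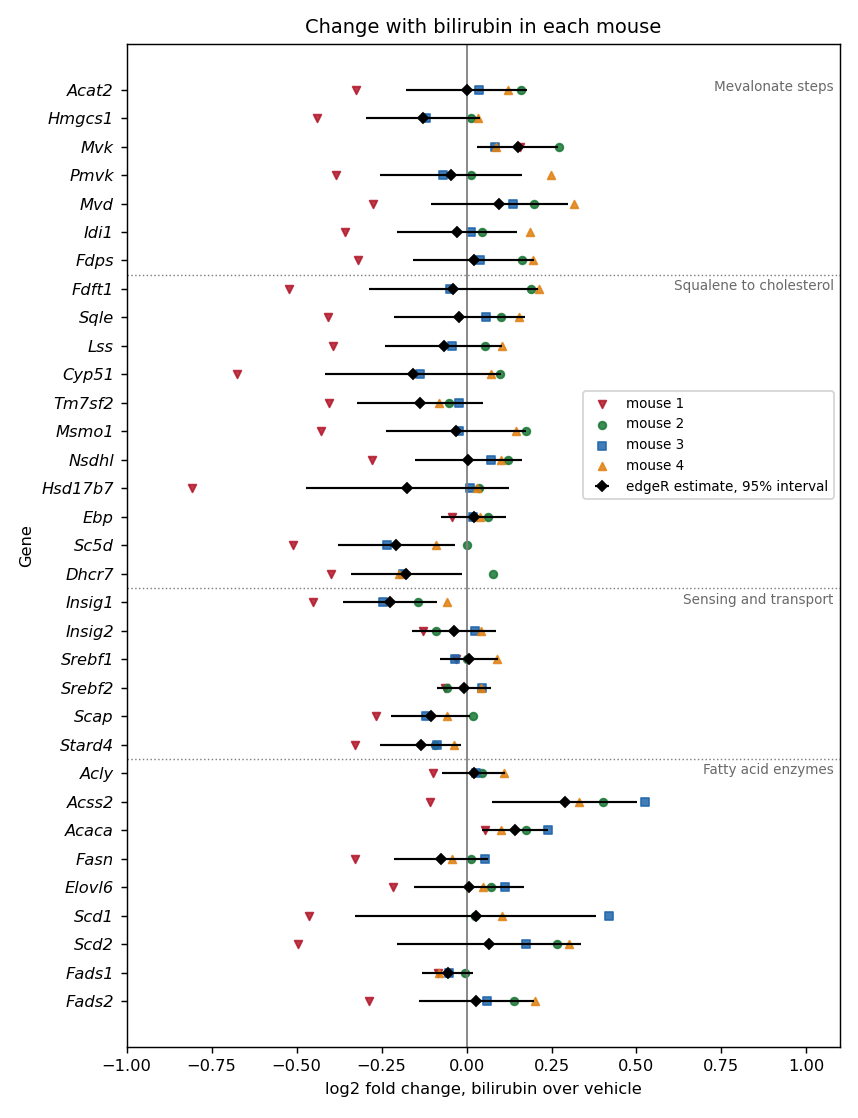
The log2 fold change of bilirubin over vehicle (horizontal axis) for each of the 33 genes (vertical axis). Black diamonds and lines are the edgeR estimate and its 95% interval, and coloured symbols are the difference of log2 CPM within each mouse. Mouse 1 lies below zero for 31 of the 33 genes and far to the left of the other mice for most of the sterol enzymes.

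The 4 mice did not move alike. In mouse 1, 31 of the 33 genes were lower in the bilirubin culture than in the vehicle culture, whereas 6 of 33 were lower in mouse 2, 14 of 33 in mouse 3 and 8 of 33 in mouse 4. Over all tested genes, the share that was lower was 49.9%, 49.7%, 50.3% and 49.6% for mice 1 to 4. The median difference of the 33 genes was -0.33 for mouse 1 and 0.055, 0.019 and 0.090 for mice 2 to 4 (log2). For 14 genes, 8 sterol and 6 fatty acid enzymes, the difference was negative in mouse 1 and positive in each of the others. Only *Mvk* and *Acaca* were higher with bilirubin in all 4 mice, and *Tm7sf2*, *Insig1*, *Stard4* and *Fads1* were lower in all 4. The standard deviation of the paired differences had a median of 0.22 over the 33 genes and 0.14 over all tested genes.

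The order of the libraries was largely the same from gene to gene. The bilirubin library of mouse 1 was the lowest of the 8 for 27 of the 33 genes, against 18.9% of all tested genes, and the bilirubin library of mouse 2 was the highest for 23 of 33, against 13.7% of all tested genes. Both extremes thus came from the bilirubin cultures. Among the bilirubin cultures, mouse 2 was highest for all 18 sterol enzymes and for 8 of the 9 fatty acid enzymes. The vehicle cultures also had an order: mouse 4 was lowest among the 4 for 27 of 33 genes and mouse 2 highest for 23 of 33, while over all tested genes these shares were 26.0% and 25.2%. The genes belong to linked pathways and were measured in the same 8 libraries, so they are not independent counts of this order.

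**Figure D2:**
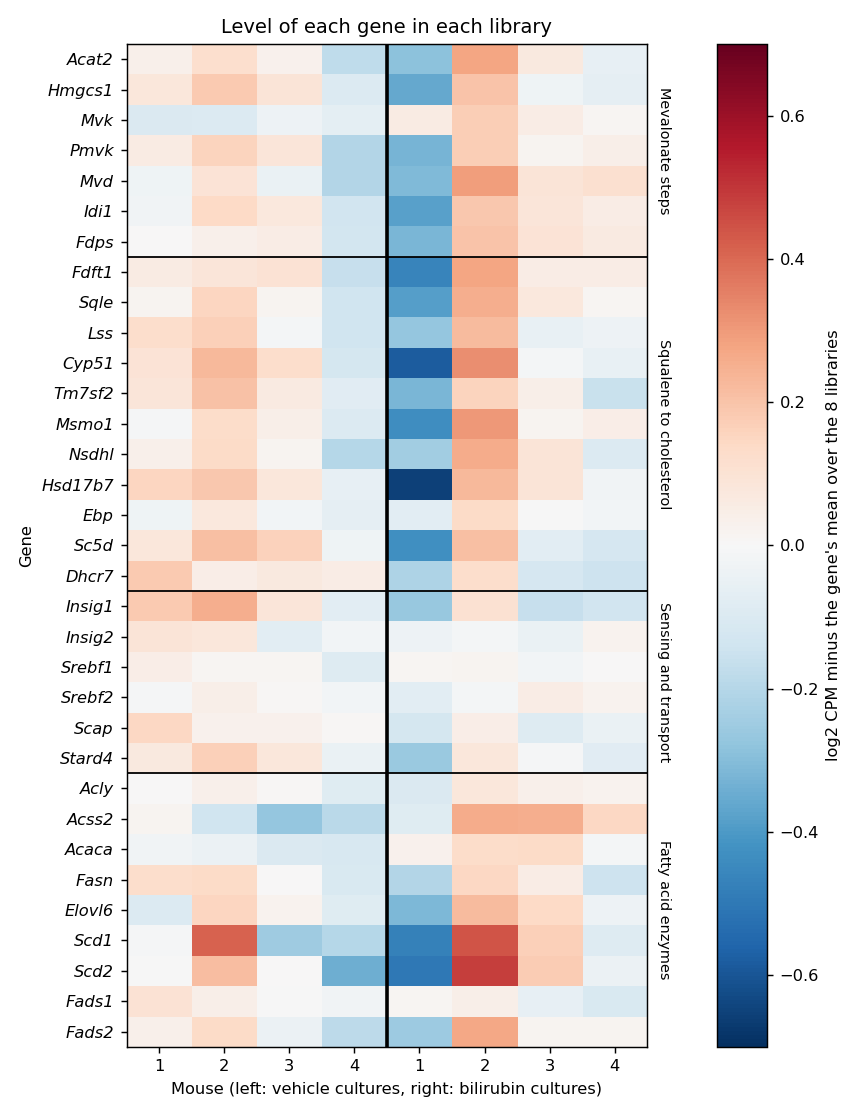
Level of each of the 33 genes (rows) in each library (columns, mice 1 to 4, vehicle on the left and bilirubin on the right), as log2 CPM minus the gene's mean over the 8 libraries. The bilirubin column of mouse 1 is blue for most genes and that of mouse 2 red, while *Srebf1*, *Srebf2* and *Insig2* stay pale throughout.

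The bilirubin library of mouse 1 was also the shallowest, with 34142781 counts on genes, and the vehicle library of the same mouse the deepest, with 47071714; the others held 37120393 to 43269953. The share of counts on mitochondrial genes was 3.35% in that bilirubin library and between 3.05% and 3.59% over all 8, and the 50 most abundant genes took 21.9% of its counts, against 22.4% to 23.9% in the others. Summed over 10 proliferation genes, its level was 2830 CPM, within the range of 2799 to 2998 over the 8 libraries. The 33 genes each had between 114 and 13756 counts per library. The part of depth in the low levels of mouse 1 was not tested.

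The marker genes fitted the label of the cells. All 7 macrophage markers were expressed, and their summed level was 23785 to 24094 CPM in vehicle cultures, and 28193 to 30185 CPM in bilirubin cultures, with 3 of the 7 upregulated (*Lyz2*, *Adgre1* and *Itgam*), against 4.49% of all tested genes. Most of the rise in the sum was *Lyz2*, at 18802 to 19353 CPM and then 23372 to 25317 CPM. *Cd68* had a lower level with bilirubin in all 4 mice, with a log2 fold change of -0.16 (adjusted p = 0.0924 by edgeR), and *Mertk* had one of -0.15 (adjusted p = 0.104 by edgeR). The 8 neutrophil markers summed to 11.1 to 13.7 CPM with vehicle and 19.9 to 32.4 CPM with bilirubin, nearly all of it *S100a8*, and *Ly6g*, *Camp* and *Elane* had no more than 7 counts in any library. *Ltf* had 30 and 25 counts in the vehicle and bilirubin libraries of mouse 1, *Ngp* 19 and 28, and *S100a9* 10 and 20. In the other mice *Ltf* and *S100a9* had at most 8 counts and *Ngp* at most 19. *Mpo* had at most 18 in any library. Markers of dendritic cells, B cells, T and NK cells, mast cells and basophils, erythroid cells and adipocytes had at most 22 counts in any library, and *Nkg7*, *Mcpt8*, *Ms4a2* and *Cidec* had none in all 8. The 4 stromal markers summed to between 2.21 and 7.93 CPM over the 8 libraries. The part of the macrophage and neutrophil marker rises in the values below was not tested.

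Promoters of the gene with the smallest adjusted p in each of the 4 lists are shown. Of these, *Mvk* and *Acaca* were higher with bilirubin in mouse 1, unlike most of the 33. Whether the sequences bear on the order of the libraries was not tested. Each is the 250 bases before the start site that RefSeq gives (GRCm38.p6, while the counts use GRCm39). Capitals mark CCAAT, the box bound by NF-Y, which is ATTGG when read on the opposite strand, and the E-box CACGTG. The windows are *Mvk* at chr5:114444019-114444268, plus strand; *Sc5d* at chr9:42264301-42264550, minus strand; *Insig1* at chr5:28071162-28071411, plus strand; and *Acaca* at chr11:84195188-84195437, plus strand. A stretch of the *Hmgcs1* promoter, chr13:119690194-119690242, plus strand, is added because it holds the only match to TCACNCCAC, a sterol regulatory element, and was chosen after that match was seen.
Mvk: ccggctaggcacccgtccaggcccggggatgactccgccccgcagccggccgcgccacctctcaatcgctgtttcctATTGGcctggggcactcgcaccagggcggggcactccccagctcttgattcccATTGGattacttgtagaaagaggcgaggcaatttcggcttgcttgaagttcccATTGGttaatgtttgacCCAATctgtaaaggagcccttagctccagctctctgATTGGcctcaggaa
Sc5d: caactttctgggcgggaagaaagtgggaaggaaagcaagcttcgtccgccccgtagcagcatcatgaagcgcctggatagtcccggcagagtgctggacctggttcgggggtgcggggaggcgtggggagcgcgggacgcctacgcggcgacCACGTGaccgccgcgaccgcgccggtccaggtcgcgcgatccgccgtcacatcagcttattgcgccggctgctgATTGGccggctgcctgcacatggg
Insig1: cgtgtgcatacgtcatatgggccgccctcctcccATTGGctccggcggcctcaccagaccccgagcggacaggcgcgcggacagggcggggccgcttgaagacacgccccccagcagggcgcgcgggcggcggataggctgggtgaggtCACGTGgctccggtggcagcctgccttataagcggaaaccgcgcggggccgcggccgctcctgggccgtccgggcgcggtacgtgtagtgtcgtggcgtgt
Acaca: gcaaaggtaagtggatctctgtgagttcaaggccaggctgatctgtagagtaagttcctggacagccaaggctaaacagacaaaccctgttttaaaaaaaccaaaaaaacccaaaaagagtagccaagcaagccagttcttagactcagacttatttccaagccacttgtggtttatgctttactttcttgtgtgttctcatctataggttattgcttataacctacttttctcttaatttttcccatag
Hmgcs1: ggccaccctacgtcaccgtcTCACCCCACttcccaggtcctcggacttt

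Of the 33 genes, 26 had at least 1 promoter window in RefSeq's table (250 bases before to 50 after the start), with 34 windows in all. A gene was counted when any of its windows held the motif. CCAAT, searched on both strands, was present in 21 of the 26 genes (80.8%), and in 41.1% of all 27025 genes with a window. It was in 14 of 15 sterol enzymes, 4 of 5 sensing genes and 3 of 6 fatty acid enzymes. The *Mvk* window held 5 CCAAT boxes, 4 of them on the opposite strand, while *Sc5d* and *Insig1* held 1 each and the *Acaca* window none. An exact match of the windows to GRCm39 placed that *Acaca* start 65788 bases inside the annotated gene, at the first base of Acaca-201. That transcript had the largest share of the TPM of *Acaca* (66.4% to 76.5%). The window is thus not that of the gene's first promoter, and whether it acts as a promoter was not tested. For 4 of the 26 genes (*Acaca*, *Acly*, *Acss2* and *Scap*), every window lay more than 1000 bases inside the gene. The only *Dhcr7* window with CCAAT had its start 7211 bases inside the gene. CACGTG was in 5 of 26 genes (*Hsd17b7*, *Sc5d*, *Dhcr7*, *Insig1* and *Scap*), or 19.2% against 8.09% of all genes. TCACNCCAC was in 1 of 26, at -137 in *Hmgcs1*, against 1.44% of all genes. None of these searched motifs overlapped another in the windows printed. They are matches of letters in a window, with no measurement of binding.

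The 7 mevalonate genes, which turn acetyl-CoA units into farnesyl pyrophosphate, had a median log2 fold change of 0.0012, with 4 positive and 3 negative and none past the threshold. *Mvk* (ENSMUSG00000041939; GRCm39 chromosome 5, 114582267 to 114601803), mevalonate kinase, was at 25.8, 25.8, 27.0 and 26.4 CPM in the vehicle cultures of mice 1 to 4 and at 28.9, 31.2, 28.7 and 28.0 CPM in their bilirubin cultures. Every bilirubin culture was above every vehicle culture, which was so for 2 of the 33 genes and for 10.6% of all tested genes. Its log2 fold change was 0.15 (SE 0.052, 95% interval 0.030 to 0.27, adjusted p = 0.144 by edgeR). *Mvk* was the only sterol enzyme that was higher with bilirubin in mouse 1.

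*Hmgcs1* (ENSMUSG00000093930; GRCm39 chromosome 13, 120151915 to 120170470), the cytosolic HMG-CoA synthase, was at 177, 190, 178 and 156 CPM in the vehicle cultures, and at 130, 192, 163 and 160 CPM in the bilirubin cultures in mice 1 to 4. The groups overlapped, with the bilirubin culture of mouse 1 lowest and that of mouse 2 highest. The log2 fold change of *Hmgcs1* was -0.13 (SE 0.073, adjusted p = 0.387 by edgeR). The other 5 were *Acat2*, the thiolase that condenses acetyl-CoA, *Pmvk* and *Mvd*, the next kinase and the decarboxylase, *Idi1*, which interconverts the isoprenoid units, and *Fdps*, which joins them. In mouse 1 these 5 differed by -0.38 to -0.28, and in mouse 4 by 0.12 to 0.32. Their estimates lay between -0.046 (*Pmvk*) and 0.097 (*Mvd*), with adjusted p-values from 0.612 to 0.996 by edgeR.

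The 11 genes from squalene to cholesterol had a median log2 fold change of -0.067, with 9 negative and 2 positive estimates (*Nsdhl* and *Ebp*), and none passed the threshold. All 11 were lower with bilirubin in mouse 1, by a median difference of -0.41. *Sc5d* (ENSMUSG00000032018; GRCm39 chromosome 9, 42162891 to 42175605), the lathosterol desaturase, was at 74.9, 82.0, 79.2 and 69.5 CPM in the vehicle cultures, and at 52.6, 82.0, 67.4 and 65.3 CPM in the bilirubin cultures. The bilirubin cultures of mice 1, 3 and 4 were below all the vehicle cultures and that of mouse 2 was level with the vehicle culture of the same mouse. Its log2 fold change was -0.21 (SE 0.075, 95% interval -0.38 to -0.034, adjusted p = 0.161 by edgeR).

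*Dhcr7* (ENSMUSG00000058454; GRCm39 chromosome 7, 143376740 to 143402149), which reduces 7-dehydrocholesterol to cholesterol, was at 46.6, 42.3, 43.0 and 42.5 CPM in the vehicle cultures, and at 35.3, 44.7, 37.7 and 37.1 CPM in the bilirubin cultures. The bilirubin culture was lower in 3 of the 4 mice and higher in mouse 2. The fit gave a log2 fold change of -0.18 (SE 0.071, adjusted p = 0.203 by edgeR). Both genes act at the end of the pathway, and both were also lower in mouse 3, by -0.23 and -0.19, where the median of the 18 sterol enzymes was -0.0050.

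The deepest single differences were in the middle of this part of the pathway. *Hsd17b7* (ENSMUSG00000026675), the ketosteroid reductase of the demethylation complex, had a difference of -0.81 in mouse 1, against 0.011 to 0.038 in the other mice, with levels of 30.8 CPM in the bilirubin culture of mouse 1 and 46.7 to 56.8 CPM in the other 7 libraries. *Cyp51*, the lanosterol demethylase, had a difference of -0.68 in mouse 1, against -0.14 to 0.098 elsewhere. *Fdft1*, squalene synthase, differed by -0.52 in mouse 1, and *Sqle*, squalene epoxidase, and *Lss*, which closes the epoxide into lanosterol, by -0.41 and -0.39. *Msmo1*, the sterol methyl oxidase, and *Tm7sf2*, a sterol reductase, differed by -0.43 and -0.41 in mouse 1, and *Nsdhl*, the decarboxylating dehydrogenase of the same complex, by -0.28. *Ebp*, the sterol isomerase, was the exception, at -0.042 in mouse 1 and 0.019 to 0.064 in the others.

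The 6 genes of sensing and transport had a median log2 fold change of -0.071, and 5 of the 6 estimates were negative. *Insig1* (ENSMUSG00000045294; GRCm39 chromosome 5, 28276315 to 28283668), the sterol-regulated anchor of SCAP, was at 179, 187, 167 and 149 CPM in the vehicle cultures, and at 131, 169, 141 and 143 CPM in the bilirubin cultures. It was lower with bilirubin in each of the 4 mice, although the groups overlapped because the bilirubin culture of mouse 2 was above the vehicle cultures of mice 3 and 4. Its log2 fold change was -0.22 (SE 0.060, 95% interval -0.36 to -0.087), with an adjusted p of 0.0648 by edgeR, the smallest of the 33. *Insig1* was past the threshold in 4 of 12 alternative settings: by DESeq2 (adjusted p = 0.00932), with library size alone as scaling (adjusted p = 0.0254 by edgeR; 7.89% of all genes were called), without a filter (6.50%), and without mouse 1 (adjusted p = 0.0286 by edgeR).

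*Stard4* (ENSMUSG00000024378; GRCm39 chromosome 18, 33332197 to 33346942), a soluble carrier of cholesterol, was at 80.2, 86.0, 80.7 and 74.1 CPM in the vehicle cultures, and at 63.9, 80.7, 76.0 and 72.3 CPM in the bilirubin cultures. It was lower in all 4 mice, most in mouse 1, and the groups overlapped. The estimate was -0.13 (SE 0.052, adjusted p = 0.182 by edgeR). *Scap*, the escort of the SREBPs, had an estimate of -0.10 (adjusted p = 0.292 by edgeR) and was lower in mice 1, 3 and 4.

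The genes of the transcription factors themselves hardly differed between the groups. *Srebf2*, the main regulator of the sterol branch, had vehicle and bilirubin levels of 292 ± 5.49 CPM and 291 ± 10.7 CPM (SD, n = 4), with a 95% interval of its log2 fold change from -0.088 to 0.073. *Srebf1*, which is tied more to fatty acid synthesis, was at 85.9 ± 3.43 CPM (SD, n = 4) and 86.3 ± 0.984 CPM (SD, n = 4), with an interval from -0.079 to 0.093. The isoforms of *Srebf1* were not told apart, and messenger levels do not show how much of either protein was processed. *Insig2*, the other INSIG gene, had an estimate of -0.037 with an interval from -0.16 to 0.086. In mouse 1, where the sterol enzymes had a median difference of -0.40, *Srebf2* differed by -0.063, *Srebf1* by -0.032 and *Insig2* by -0.13.

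The 9 fatty acid enzymes had a median log2 fold change of 0.027, with 7 positive and 2 negative estimates (*Fasn* and *Fads1*) and none past the threshold. *Acaca* (ENSMUSG00000020532; GRCm39 chromosome 11, 84020476 to 84292477), acetyl-CoA carboxylase, which commits carbon to fatty acids, was at 61.0, 60.3, 57.8 and 57.4 CPM in the vehicle cultures, and at 63.5, 68.0, 68.3 and 61.6 CPM in the bilirubin cultures. Every bilirubin culture was above every vehicle culture. Its log2 fold change was 0.14 (SE 0.043, 95% interval 0.045 to 0.24, adjusted p = 0.0906 by edgeR).

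*Acss2* (ENSMUSG00000027605; GRCm39 chromosome 2, 155355679 to 155428016), which makes acetyl-CoA from acetate and so feeds both branches, was at 35.5, 31.8, 29.05 and 30.7 CPM in the vehicle cultures, and at 32.97, 42.0, 41.8 and 38.7 CPM in the bilirubin cultures. It was higher with bilirubin in mice 2, 3 and 4 and lower in mouse 1, whose vehicle culture was the highest of the 4. For *Acss2* the log2 fold change was 0.29 (SE 0.093, 95% interval 0.076 to 0.50, adjusted p = 0.115 by edgeR). *Acly*, the other source of cytosolic acetyl-CoA, from citrate, had an estimate of 0.021 with an interval from -0.071 to 0.11.

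**Figure D3:**
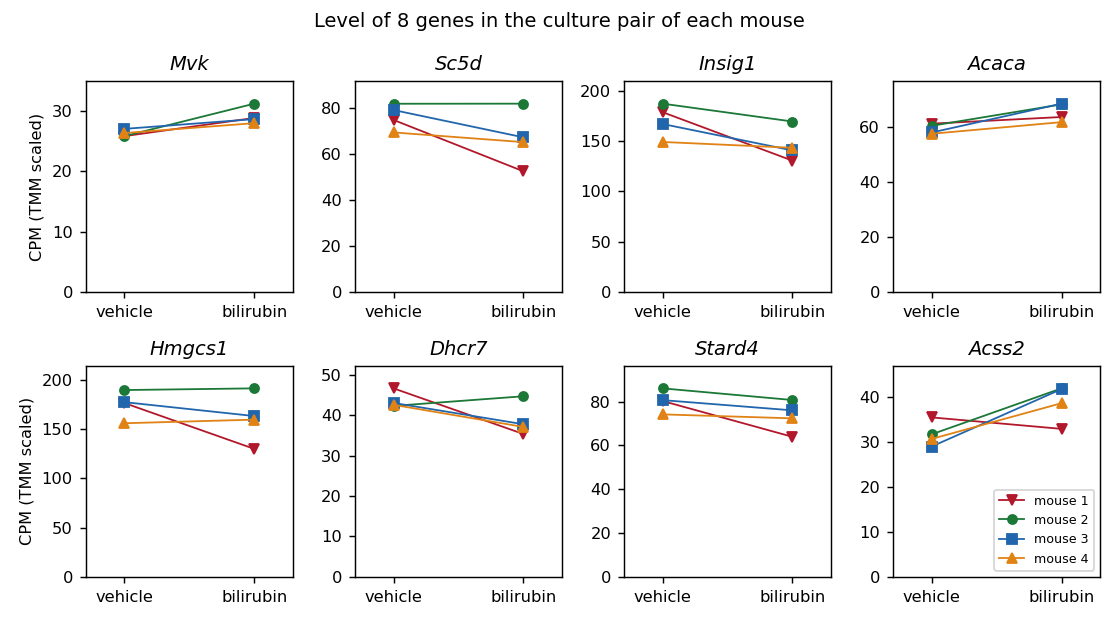
CPM (TMM scaled, axes from 0) in the vehicle and the bilirubin culture of each mouse for the 2 genes with the smallest unadjusted p in each of the 4 lists. Lines join the cultures of a mouse. For *Mvk* and *Acaca* all 4 lines rise, for *Insig1* and *Stard4* all 4 fall, and for *Acss2* the line of mouse 1 falls while the others rise.

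The stearoyl-CoA desaturases varied most between mice among the fatty acid enzymes. *Scd2*, the stearoyl-CoA desaturase with the higher count in these cells, was at 161, 188, 162 and 127 CPM in the vehicle cultures, and at 114, 226, 183 and 157 CPM in the bilirubin cultures, a difference of -0.50 in mouse 1 against 0.18 to 0.30 elsewhere. *Scd1*, its paralog, had few counts (114 to 230 per library), ranged from a difference of -0.46 in mouse 1 to 0.42 in mouse 3, and had the widest interval of the fatty acid enzymes, from -0.33 to 0.38. *Fasn*, fatty acid synthase, had a difference of -0.33 in mouse 1, against -0.042 to 0.053 elsewhere. *Elovl6*, the elongase of palmitate, and *Fads2*, the delta-6 desaturase, also differed most in mouse 1 (-0.22 and -0.29). *Fads1*, the delta-5 desaturase, was lower in all 4 mice by -0.084 to -0.0042, and its 95% interval was -0.13 to 0.019.

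Set side by side, the branches differed less from each other than each did between mice. The median difference of the 18 sterol enzymes was -0.40 for mouse 1 and 0.089, -0.0050 and 0.10 for mice 2 to 4. For the 9 fatty acid enzymes it was -0.22, 0.072, 0.11 and 0.11 in the same mice. The fatty acid median was thus above the sterol median by 0.18 in mouse 1 and 0.12 in mouse 3, by 0.0024 in mouse 4, and below it by 0.017 in mouse 2. In the fit across the 4 mice the medians were -0.035 for sterol enzymes and 0.027 for fatty acid enzymes, while all tested genes had a median of -0.0018. No test of the branches is given, because the genes of a branch share their libraries and only 4 mice were compared.

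**Figure D4:**
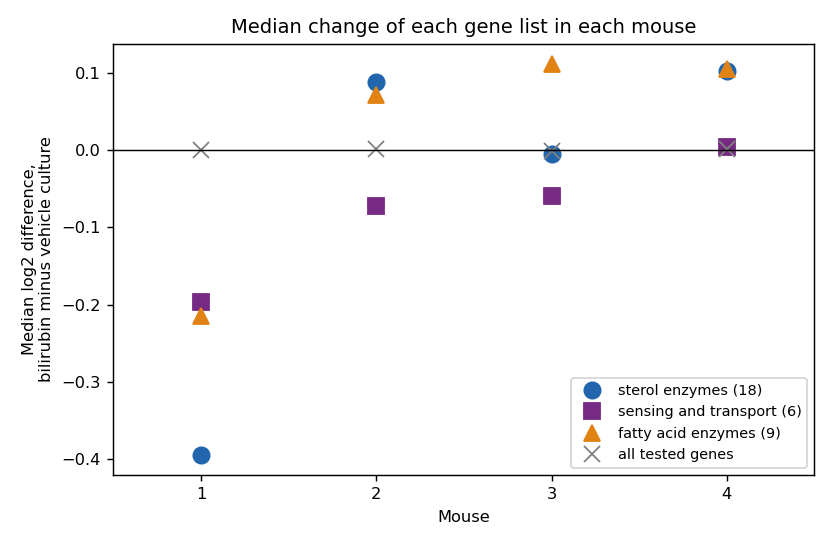
Median difference of log2 CPM between the bilirubin and the vehicle culture (vertical axis) in each mouse (horizontal axis) for the 18 sterol enzymes, the 6 genes of sensing and transport, the 9 fatty acid enzymes and all tested genes. Mouse 1 is the lowest for each list, at -0.40 for the sterol enzymes and -0.22 for the fatty acid enzymes, while all tested genes stay near zero in every mouse.

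The spread itself differed between the lists. The standard deviation of the paired differences had a median of 0.23 for the sterol enzymes, 0.17 for the fatty acid enzymes and 0.10 for sensing and transport. It was above the median of all tested genes for 16 of 18 sterol enzymes, 6 of 9 fatty acid enzymes and 1 of 6 genes of sensing and transport. Among the sterol enzymes the range over the 4 bilirubin cultures had a median of 0.56 (log2), against 0.28 over the 4 vehicle cultures. For all tested genes these medians were 0.29 and 0.21.

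Leaving out mouse 1 altered the picture for part of the genes. In the remaining 3 mice, 7 of the 33 genes passed the threshold, against 13.9% of all tested genes in that fit. *Acss2* (log2 fold change 0.42, adjusted p = 0.000244), *Scd2* (0.25, adjusted p = 0.000848), *Acaca* (0.17, adjusted p = 0.0178) and *Fads2* (0.13, adjusted p = 0.0464) of the fatty acid branch rose by edgeR. *Mvd* (0.21, adjusted p = 0.0135) and *Fdps* (0.13, adjusted p = 0.0466) of the mevalonate steps rose too, and *Insig1* fell (-0.15, adjusted p = 0.0286). The median was then 0.070 for the sterol enzymes and 0.13 for the fatty acid enzymes. Without mouse 2, mouse 3 or mouse 4, 0 of the 33 passed by edgeR, against 4.58%, 2.75% and 3.21% of all tested genes, so that these counts say little about the 33. At an unadjusted p under 0.05 there were 5, 2 and 6 of the 33, against 17.0%, 14.4% and 14.4% of all tested genes.

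Levels can be compared between genes in TPM, which is scaled for transcript length. *Fdps* was the highest of the 33, at 223 ± 11.8 TPM (SD, n = 4) with vehicle, followed by *Msmo1* at 152 ± 12.4 TPM (SD, n = 4). *Srebf2* (116 ± 1.65 TPM), *Sqle* (115 ± 9.18 TPM), *Insig1* (110 ± 10.3 TPM) and *Fads1* (107 ± 4.70 TPM) came next (SD, n = 4). From *Srebf2* to *Fads1*, neighbours in this order differed by less than the larger of their SDs. Of the fatty acid enzymes, *Acly* was at 91.4 ± 3.50 TPM, *Fasn* at 64.3 ± 7.09 TPM and *Acaca* at 13.7 ± 0.737 TPM (SD, n = 4). *Elovl6* was the lowest of the 33 by the TPM summed over a gene's transcripts, at 4.99 ± 0.467 TPM (SD, n = 4). *Scd1* was at 8.76 ± 1.73 TPM (SD, n = 4), most of it from a transcript without a defined coding sequence.

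**Figure D5:**
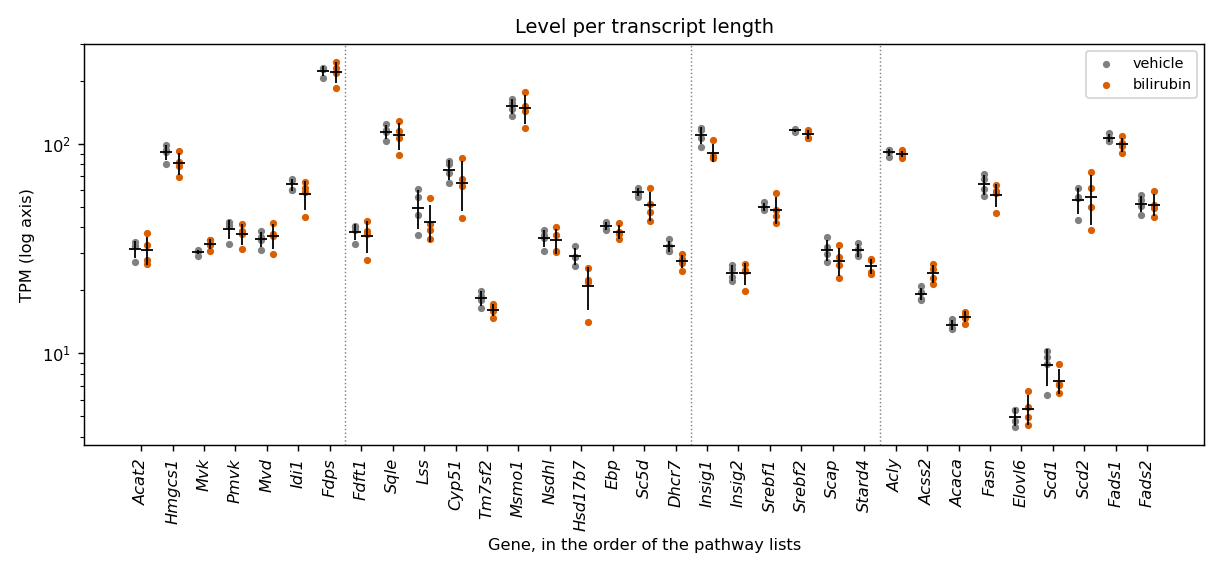
TPM (log axis) of the 33 genes with vehicle (grey) and bilirubin (orange). Points are the 4 mice, and black marks are the mean and SD of the 4. *Fdps* is the highest and *Elovl6* the lowest with either treatment, and the groups lie close together for most genes.

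TPM moved apart from counts for some genes. *Hsd17b7* was at 29.2 ± 2.66 TPM with vehicle and 21.0 ± 4.89 TPM with bilirubin (SD, n = 4). The transcript with the largest share of its TPM held between 50.4% and 82.0% of it over the libraries. For *Scd1*, 69.8% to 94.4% of the TPM was assigned to a transcript that the annotation lists without a defined coding sequence, and its coding transcripts held 5.56% to 30.2%. For *Lss*, coding transcripts held 32.0% to 50.4%. With an offset for transcript length in the edgeR fit, *Scd1* had a log2 fold change of -0.18 in place of 0.027, and *Hsd17b7* had one of -0.46 in place of -0.17 (adjusted p = 0.229 by edgeR). *Lss* (-0.18 in place of -0.067), *Idi1* (-0.12 in place of -0.027) and *Elovl6* (0.15 in place of 0.0072) also moved away from 0. So did *Fasn* (-0.13 in place of -0.076) and *Stard4* (-0.21 in place of -0.13). *Ebp* (-0.050 in place of 0.020), *Srebf1*, *Nsdhl* and *Insig2* turned sign. *Acat2* (0.017 in place of 0.0012), *Srebf2* (-0.022 in place of -0.0075) and *Msmo1* (-0.0012 in place of -0.031) moved among values near 0. With this offset 0 of the 33 genes passed, against 4.22% of all tested genes, and 8 were at an unadjusted p under 0.05, against 17.3%.

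Some counts are less certain by position. *Tm7sf2* overlaps *Vps51* on the same strand. *Fdft1* overlaps *Ctsb*, a cathepsin gene with a mean of 427556 counts, on the opposite strand, and *Acat2*, *Hmgcs1*, *Sqle*, *Cyp51*, *Nsdhl*, *Srebf1*, *Scap*, *Acss2* and *Acaca* overlap other expressed genes on the opposite strand. Whether strand was used in the counting is not given in the sources used here, so reads of these pairs may have been shared. *Acat3*, the near-identical neighbour of *Acat2*, had vehicle and bilirubin levels of 0.246 ± 0.177 CPM and 0.175 ± 0.119 CPM (SD, n = 4).

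Among 36 other genes of lipid synthesis, activation and sterol control, 3 passed the threshold, 2 upregulated and 1 downregulated, against 7.53% of all genes. *Acsl1* and *Acsl4*, which activate fatty acids to their CoA esters, rose from 71.6 ± 2.82 to 103 ± 13.3 CPM and from 108 ± 4.17 to 134 ± 14.9 CPM (SD, n = 4; adjusted p = 0.00363 and 0.00717 by edgeR). *Hacd2*, a dehydratase of very long chain elongation, fell from 35.0 ± 1.75 to 29.4 ± 1.31 CPM (SD, n = 4; adjusted p = 0.0210 by edgeR). The direction of each of the 3 was shared by all 4 mice. *Por*, which passes electrons to CYP51 and squalene epoxidase, and *Me1*, a source of NADPH, had their lowest difference in mouse 1, at -0.57 and -0.39, and were chosen for mention after their values were seen. Over the 36 genes, 23 were lower with bilirubin in mouse 1, with a median difference of only -0.058 and a range of -0.57 to 0.53.

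Of 6 target genes of the LXR receptors, which sense oxysterols, 2 were upregulated and 1 downregulated, against 4.49% and 3.04% of all tested genes. *Abca1*, the cholesterol exporter, rose from 13.9 ± 1.83 to 33.2 ± 10.5 CPM (SD, n = 4; log2 fold change 1.22, adjusted p = 0.00251 by edgeR), with log2 differences of 1.78 in mouse 1 and 0.79 to 1.44 elsewhere. *Nr1h3*, which encodes LXR alpha, rose with a log2 fold change of 0.42 (adjusted p = 0.00314 by edgeR), and *Smpdl3a* fell with a log2 fold change of -0.21 (adjusted p = 0.0339 by edgeR). *Abcg1* (0.15, adjusted p = 0.469), *Lpcat3* (0.086, adjusted p = 0.423) and *Mylip* (-0.13, adjusted p = 0.184) did not pass by edgeR. The difference of *Abcg1* was 0.59 in mouse 1 and -0.014 to 0.0075 elsewhere, and *Mylip* was lower in all 4 mice. Of 10 proliferation genes, 0 passed by edgeR, and 2 (*Pcna* and *Birc5*) were at an unadjusted p under 0.05, which is close to the 20.8% of all tested genes.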

How the data were processed

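Each of 4 mice gave 1 vehicle and 1 bilirubin culture of BMDM, and the RNA of all 8 was sequenced. The authors trimmed reads with Trim Galore 0.6.7 and Cutadapt 3.4, and aligned and quantified them with STAR 2.7.9a and Salmon 1.10.1 against GRCm39 (tool versions per the submitters' processing notes). The authors deposited a gene table of estimated counts, summed from transcripts by tximport with no scaling by depth or length. The authors also deposited 1 transcript table per library, holding effective lengths, TPM and estimated counts. Gene positions and transcript types came from GENCODE on GRCm39 and promoters from RefSeq on GRCm38.p6.

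After rounding to whole numbers, counts were compared with edgeR 4.0.16 in R 4.3.3 (TMM scaling, filterByExpr with 10 counts and 15 in total, quasi-likelihood test, mouse and treatment in the model), and p-values were adjusted over 13722 genes by the Benjamini-Hochberg method. The study's own analysis used limma with the mouse as a covariate, which was run here as the voom alternative (limma 3.58.1). CPM was scaled by TMM, and log2 CPM used a prior count of 2. DESeq2 1.42.0 and the other alternatives are listed with their effects in the closing section. Pairing came from the labels, which tie both cultures to a mouse, and the deviations of the cultures of mice 1 to 4 from their group means correlated across genes at 0.108, 0.134, 0.108 and -0.0053. The vehicle culture of mouse 4 correlated more with the bilirubin cultures of mouse 1 (0.062) and mouse 3 (0.029) than with its own. The bilirubin culture of mouse 4 correlated most with the vehicle culture of mouse 3 (0.075), so the pairing of mouse 4 rests on the labels alone. Libraries held 34142781 to 47071714 counts. The procedure was tested on simulated data. The 33 genes, the lists and the rule for named genes (all 33, with values per library for the 2 of smallest p in each list, at most 6 genes past the threshold in each of the other lists, and promoters of the gene of smallest adjusted p) were chosen with earlier results of these data known. P-values rest on the spread between cultures of 4 mice, with 1 culture per mouse and treatment. The variance of each gene was drawn in part from all tested genes, so they do not measure the spread of that gene alone.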

Additional observations from a re-analysis of the deposited data

Results flagged for a closer look

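Among 102 groups of 4 values examined (each gene's differences over the 4 mice, its 4 vehicle and its 4 bilirubin levels, and the medians of the lists), 7 had a value far from the other 3 by Dixon's test, where chance gives about 1 in 20. In mouse 1 the difference between the bilirubin and the vehicle culture stood apart for *Hsd17b7*, at -0.81 against 0.011 to 0.038 in the other mice. The same held for *Scd2* (-0.50 against 0.18 to 0.30), *Tm7sf2* (-0.41 against -0.080 to -0.021) and *Nsdhl* (-0.28 against 0.073 to 0.12), and for the median of the fatty acid enzymes (-0.22). The vehicle culture of mouse 4 was low for *Fdft1*, at 5.93 log2 CPM against 6.14 to 6.19 in the others. The vehicle culture of mouse 1 was high for *Scap*, at 6.05 log2 CPM against 5.92 to 5.94. What set the bilirubin culture of mouse 1 apart was not tested.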

How the results depend on the processing

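Alternatives were the model without the replicate block for mouse, DESeq2, limma voom, scaling by library size alone or by the size factors of DESeq2, no filter or a CPM above 1 in 4 libraries, an offset for transcript length, each mouse left out, and the fatty acid list without *Acly* and *Acss2*. Of the 33 genes, 24 passed the threshold in none of them. Without the replicate block, that is without the pairing by mouse, 686 genes passed in place of 1033 and 0 of the 33. No filter gave 1692 genes and 4 of the 33 (*Sc5d*, *Dhcr7*, *Insig1* and *Acss2*), the length offset 579 genes, DESeq2 2 of the 33 and library size alone 1 of the 33. Leaving out a mouse gave 377 to 1910 genes and 0 to 7 of the 33. The median stayed within 1 SD of the mouse medians for both branches. It ranged from -0.11 to 0.070 for sterol enzymes and from -0.0084 to 0.13 for fatty acid enzymes with a mouse left out, and the fatty acid median was below 0 without mouse 2 (-0.0041), without mouse 4 (-0.0084) and with library size alone (-5.6e-05), the setting that moved the median of all genes to -0.028. The causes were not tested.

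The sign held in all alternatives for 12 genes (*Acaca*, *Acss2*, *Dhcr7*, *Fads1*, *Hmgcs1*, *Insig1*, *Mvd*, *Mvk*, *Sc5d*, *Scap*, *Stard4* and *Tm7sf2*). The log2 fold changes that turned sign, none of them past the threshold, were *Acat2* by DESeq2 (-0.00092), with its size factors (-0.00031) and without a filter (-0.0039). With library size alone they were *Acat2* -0.025, *Fdps* -0.0061, *Nsdhl* -0.021, *Ebp* -0.0060, *Srebf1* -0.019, *Acly* -0.0051, *Elovl6* -0.020 and *Scd1* -5.6e-05. With the length offset they were *Nsdhl* -0.0017, *Ebp* -0.050, *Insig2* 0.025, *Srebf1* -0.012 and *Scd1* -0.18. With a mouse left out, the ranges that crossed 0 were *Pmvk* -0.14 to 0.061, *Idi1* -0.099 to 0.078, *Fdft1* -0.12 to 0.11, *Sqle* -0.081 to 0.10, *Lss* -0.12 to 0.037, *Cyp51* -0.24 to 0.0090, *Msmo1* -0.10 to 0.097, *Hsd17b7* -0.25 to 0.024, *Srebf2* -0.027 to 0.0084, *Fasn* -0.12 to 0.0059, *Acat2* -0.054 to 0.10, *Fdps* -0.038 to 0.13, *Nsdhl* -0.034 to 0.096, *Elovl6* -0.031 to 0.076, *Scd2* -0.014 to 0.25, *Fads2* -0.028 to 0.13, *Scd1* -0.11 to 0.18, *Srebf1* -0.021 to 0.019 and *Acly* -0.0084 to 0.059. Some of these reached the threshold without mouse 1, namely *Fdps*, *Scd2* and *Fads2*, each upward. Depth limits *Scd1* most, with 114 to 230 counts per library.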
